A study of Mus musculus with 12 samples.

Results

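The cell cycle and DNA replication genes described here are 45 genes that dividing cells use to enter the cycle, copy their DNA and separate their chromosomes. They were taken by symbol from a written list, which was drawn up with earlier results of these data known. Of the 45 listed genes, 44 were measured, among 17097 genes in all. Ccnb1, which encodes cyclin B1, was not analysed here, since the annotation used gave no probe set to it alone. The value of a gene is the log2 signal of its brightest probe set (by mean over the 12 arrays), and since probe sets differ in brightness, signals are set against the median gene or control probe sets only to show how dim or bright a probe set is.

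Dendritic cells (DCs), which present antigen to T cells, came from single spleens of male C57BL/6 mice aged 10 weeks and were isolated by positive selection. The 4 groups of 3 arrays were miR-142 knockout (KO) DCs given lipopolysaccharide (LPS), wild-type (WT) DCs given LPS, unstimulated KO DCs and unstimulated WT DCs. LPS is a bacterial cell wall component that activates DCs through the receptor TLR4, and neither its dose nor its time is stated in the sources used here. The WT mice were littermates of the same age and sex, the labels name no Cre driver or cell-restricted deletion, and what else a KO spleen had gained or lost is not stated. The labels disagree on the cells: titles, sources and the cell type field give DCs, whereas the description field gives T cells, and the arrays were taken as DC arrays.

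Cell division runs in an order that these genes follow. D-type cyclins with Cdk4 and Cdk6, then E-type cyclins with Cdk2, start the cycle and release E2F transcription factors, which switch on replication genes. Cdc6 and Cdt1 load the Mcm helicase onto origins, the sliding clamp Pcna holds the polymerases on DNA, and later a MYB-MuvB and FOXM1 programme switches on the genes of mitosis. Most DCs of a mouse spleen are not dividing, but their precursors in bone marrow and spleen divide, as do precursors of neutrophils and red cells.

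The deleted microRNA gene is active in blood cells and gives a pair of mature strands, which pair with messenger RNAs mainly through the seed. Its mature sequences are shown because they define the genotype, in RNA letters from RefSeq (GRCm38.p6, plus strand, chr11:87756867-87756887 for the 5p strand and chr11:87756903-87756925 for the 3p strand), with the seed (bases 2 to 8) in capitals. The annotation used gave no probe set to the microRNA gene itself, whose level is not analysed here, and no check of the genotype was made with it.
mmu-miR-142a-5p: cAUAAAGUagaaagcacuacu
mmu-miR-142a-3p: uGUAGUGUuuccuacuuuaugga

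One library, KO LPS array 2, was unlike the rest. Over all genes it correlated with the 11 remaining arrays at 0.933 to 0.960, while all pairs without it gave 0.959 to 0.991. Its gap between 3' and middle Gapdh probe sets was 3.04 log2 units, against 1.53 to 1.86 elsewhere, and limma's array weights gave it 0.222. Each result that rests on it is therefore also given without it. All 10 measured markers of conventional DCs lay at or above the median gene (3.14 on the log2 scale), as did 5 of 7 T cell markers. The brightest of those 5 were Cd8a and Cd4, which are not specific to T cells. That count therefore does not tell which cells the RNA came from. Markers of neutrophils and their precursors differed by genotype: relative to each gene's 12-array mean they averaged 0.22 to 2.06 in KO LPS arrays, -2.01 to -1.16 in WT LPS arrays, 0.25 to 2.45 in unstimulated KO arrays and -2.11 to -1.16 in unstimulated WT arrays. Natural killer (NK) cell markers averaged 0.80 to 0.99 in KO LPS arrays, -1.17 to -0.54 in WT LPS arrays, 0.74 to 1.01 in unstimulated KO arrays and -1.39 to -0.65 in unstimulated WT arrays. The part of these cells in the results below was not tested, and in bulk RNA a smaller number of cells of a type cannot be told apart from less RNA per cell.

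Most of the cell cycle genes were measurable in these DC samples. The 12-array mean was at or above the median gene for 33 of the 44 and below it for 11, namely Ccne2, Mcm2, Mcm5, Cdc45, Chek1, Aurka, Aurkb, Plk1, Bub1, Ttk and Tpx2. All 44 lay above the brightest of 23 nonspecific control probe sets (1.04). At the dim end differences are compressed, so a change in those 11 is easier to miss.

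No cell cycle gene passed the test in any of the 6 comparisons (limma, Benjamini-Hochberg adjusted p under 0.05 over all 17097 genes). Of all genes, 0.252% were called for KO against WT in unstimulated cells, 0.445% for KO against WT after LPS, and 2.62% for KO against WT averaged over both stimulations (1.66% with array number within genotype as a random block). LPS against unstimulated cells gave 0.117% in WT DCs (0.281% with that block and 0.439% with fixed pairs) and 0.392% in KO DCs (0.79% and 0.866%), and the difference between the 2 LPS effects gave 0.0%. At such shares about 1 gene or none of 44 would be called, so a count of 0 is close to the background.

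At an unadjusted p under 0.05 the cell cycle genes gave short and mixed lists. KO against WT in unstimulated cells had 1 of 44 higher and 0 lower (5.09% and 3.64% of all genes). After LPS 4 of 44 were lower in KO and 0 higher (7.28% of all genes lower and 6.52% higher), and averaged over both stimulations 3 were lower and 1 higher (7.74% and 8.52%). LPS in WT had 2 higher and 0 lower (3.17% and 1.95%), LPS in KO had 1 higher and 2 lower (4.21% and 5.26%), and the difference of the LPS effects had 0 higher and 1 lower (1.3% and 2.44%). The share of the list exceeded that of all genes in 2 of these 12 counts, namely genes lower in KO after LPS and genes higher with LPS in WT. By role, the genes lower in KO after LPS were 3 licensing, fork and checkpoint genes and 1 of the mitotic kinase and spindle checkpoint group. Those higher with LPS in WT were 1 of the D-type and E-type cyclin group and 1 licensing, fork and checkpoint gene.

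The middle of the list lay near 0. The median log2 difference of the 44 genes was 0.028 for KO against WT unstimulated (-0.001 over all genes), 0.065 after LPS (-0.026 over all genes) and 0.077 averaged (-0.016 over all genes). For LPS it was 0.035 in WT (0.003 over all genes) and 0.018 in KO (-0.021 over all genes), and for the difference of the LPS effects -0.040 (-0.024 over all genes). Without array 2 of the KO LPS group the medians were -0.12 for KO against WT after LPS, -0.017 averaged, -0.11 for LPS in KO and -0.14 for the difference, so 3 of the 4 turned sign.

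The precision of these comparisons was limited by spread among arrays of one group. The median SD within groups was 0.303 log2 units over the cell cycle genes and 0.171 over all genes, and without array 2 of the KO LPS group 0.207 and 0.153. For a single comparison the 95% interval of a cell cycle gene reached 0.467 log2 units to either side (median over the 44), against 0.301 over all genes, and 0.330 for the comparison averaged over both stimulations. Differences smaller than that could be present and were not detectable with 3 arrays per group. These intervals are not adjusted for the number of genes, and the test was, so larger differences could also go uncalled. The largest rise with LPS in KO, 1.08, was not called.

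**Figure D1:**
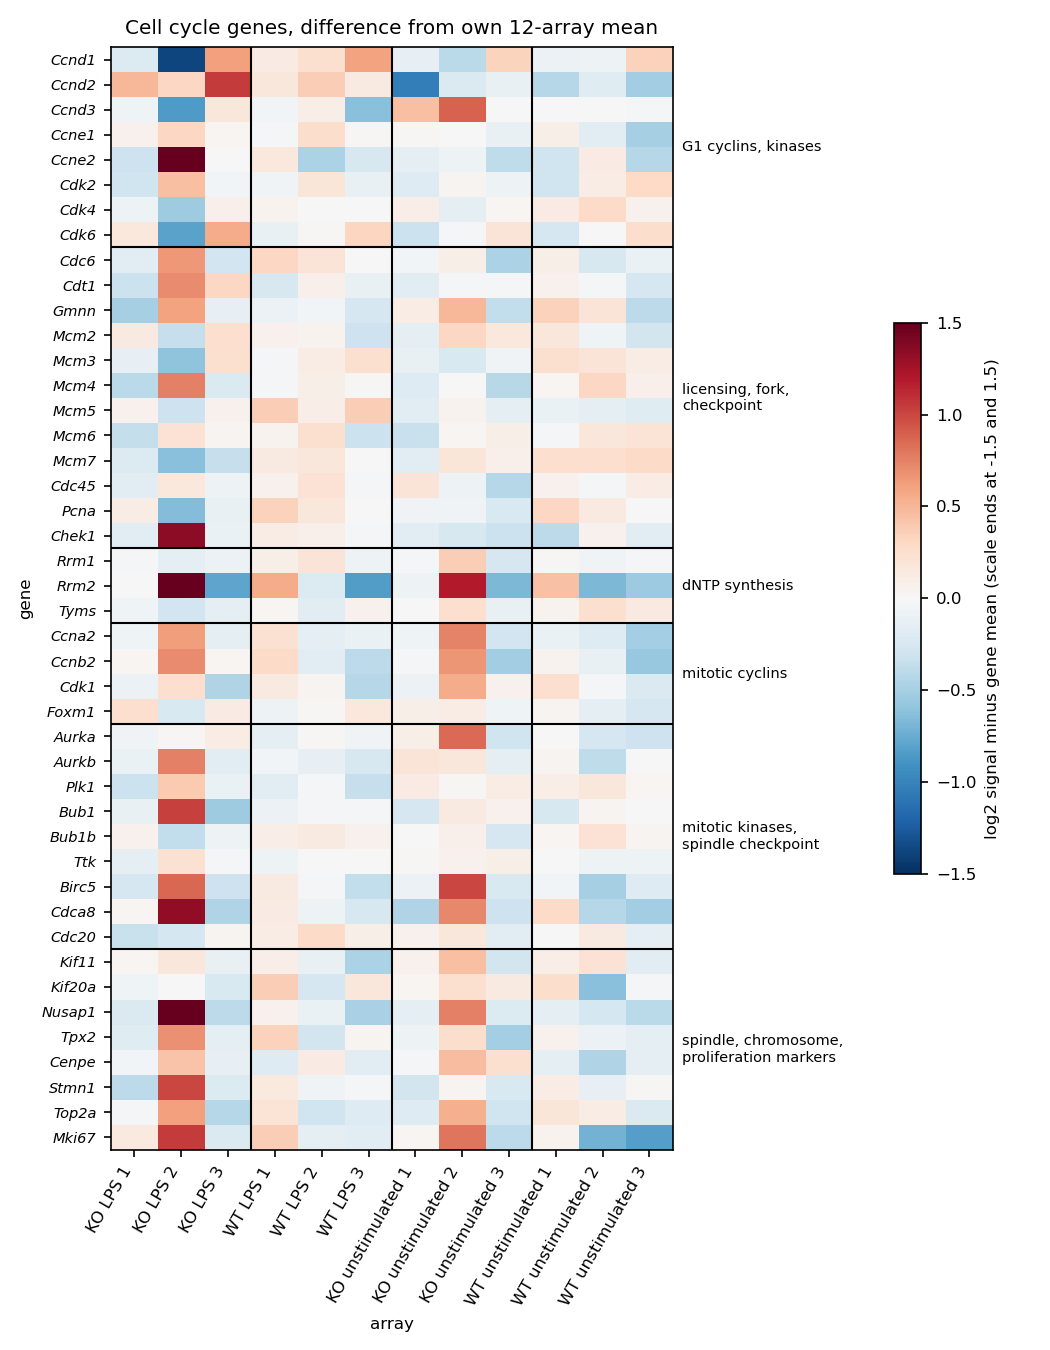
Log2 signal of each of the 44 measured cell cycle genes (rows, ordered by role) on each of the 12 arrays (columns), as the difference from that gene's own 12-array mean. Array 2 of both KO groups is red across most mitotic genes, while KO LPS array 2 is blue for Ccnd1, Ccnd3, Cdk6, Mcm7 and Pcna.

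Averaged over the 44 genes, no group stood out. This module score, the mean over genes of the log2 difference from the gene's 12-array mean, was -0.10, 0.31 and -0.06 in KO LPS arrays 1 to 3, 0.09, 0.02 and -0.10 in WT LPS arrays, -0.08, 0.26 and -0.15 in unstimulated KO arrays, and 0.03, -0.07 and -0.14 in unstimulated WT arrays. The highest score in each KO group was that of array 2, the other KO arrays lay within the range of the WT arrays or just below it, and every pair of groups overlapped. Group means were 0.05 ± 0.22 in KO LPS, 0.00 ± 0.10 in WT LPS, 0.01 ± 0.22 in unstimulated KO and -0.06 ± 0.08 in unstimulated WT arrays (SD, n = 3 arrays each).

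The differences between these means were smaller than the spread between arrays (pooled SD 0.168). KO minus WT was 0.067 in unstimulated cells and 0.047 after LPS, and LPS minus unstimulated was 0.062 in WT and 0.043 in KO. Without KO LPS array 2, KO minus WT after LPS was -0.08 and LPS minus unstimulated in KO was -0.09, which reversed both directions. Without array 2 of both KO groups, an alternative chosen after the data were seen, KO minus WT was -0.06 in unstimulated cells and -0.08 after LPS.

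**Figure D2:**
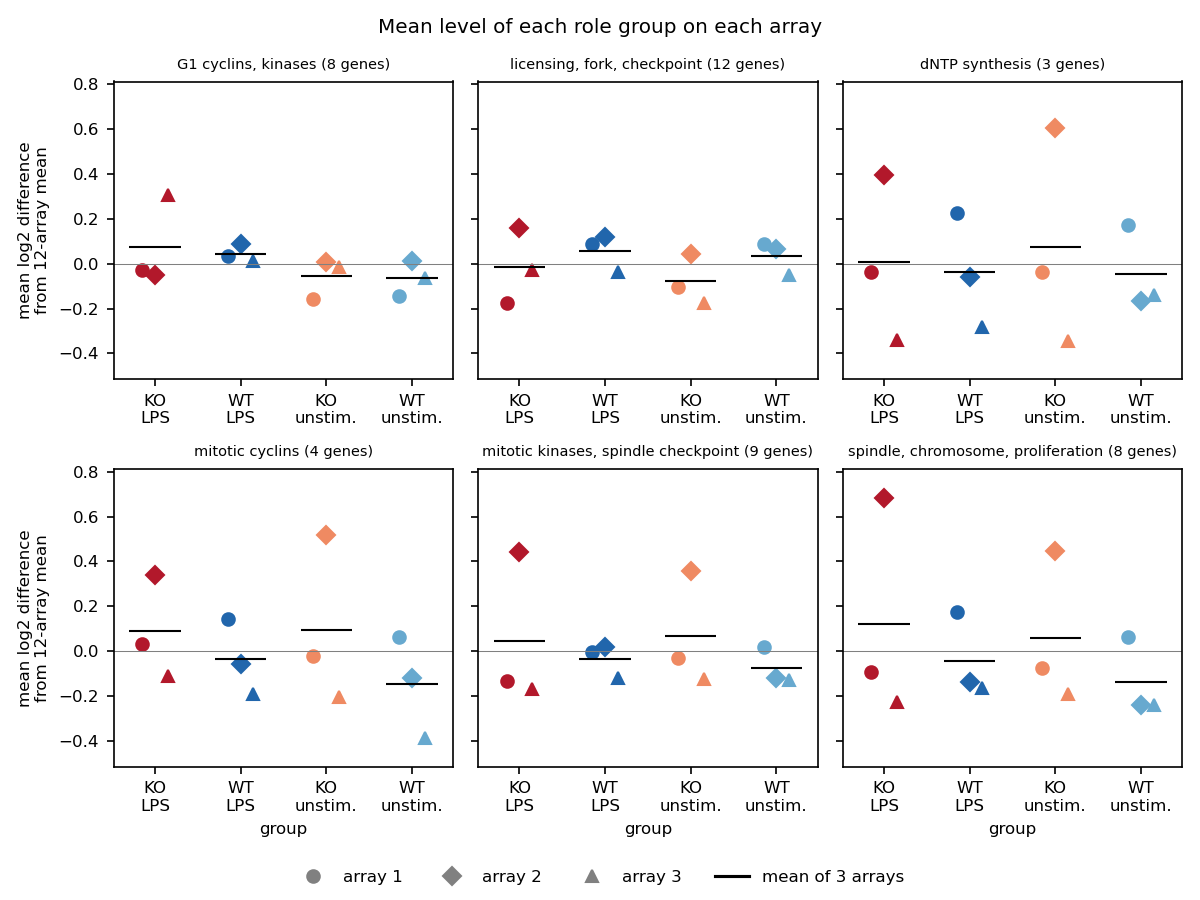
Mean log2 difference from the 12-array mean over the genes of each role group (number of genes in the title), for each array (symbols mark array numbers 1 to 3) and the mean of 3 arrays (line), in KO LPS, WT LPS, unstimulated KO and unstimulated WT DCs. In the 3 mitotic panels array 2 lies above the other 2 arrays in both KO groups, whereas in the panel of D-type and E-type cyclins KO LPS array 2 is the lowest of its group, at -0.05.

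Array 2 of both KO groups scored high for the genes of mitosis. Over the 21 measured genes of the 3 mitotic role groups the score was -0.09, 0.51 and -0.18 in KO LPS arrays 1 to 3, 0.09, -0.06 and -0.15 in WT LPS arrays, -0.05, 0.42 and -0.16 in unstimulated KO arrays and 0.04, -0.17 and -0.22 in unstimulated WT arrays. Array 2 was thus the highest of its group in both KO groups and in neither WT group. In both WT groups array 1 had the highest score, and it was the highest for 13 of 21 genes with LPS and 16 of 21 without. The 3 deoxynucleotide genes scored 0.40 on KO LPS array 2 and 0.61 on unstimulated KO array 2, and the 12 licensing, fork and checkpoint genes 0.16 and 0.04. With LPS the deoxynucleotide score came from Rrm2 alone, which lay 2.00 above the mean of arrays 1 and 3. Rrm1 was at -0.07 and Tyms at -0.18. On unstimulated KO array 2 all 3 were higher, by 0.51 for Rrm1, 1.57 for Rrm2 and 0.31 for Tyms.

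Gene by gene, array 2 was the highest of its group in both KO groups for 20 of the 44 genes (45.5%), against 2490 of 17097 genes (14.6%). All 8 genes of the spindle, chromosome and proliferation-marker group did so, namely Kif11, Kif20a, Nusap1, Tpx2, Cenpe, Stmn1, Top2a and Mki67. So did Ccna2, Ccnb2, Cdk1, Bub1, Birc5 and Cdca8, which made 14 of the 21 mitotic genes. Outside mitosis this was the case for Rrm2, Ccne2, Cdk2, Cdc6, Gmnn and Mcm4. The same was seen for 49 of 98 other cell cycle genes that are not in the list. These counts describe a pattern found in the same arrays and have no test.

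The size of the step differed between genes, and those with a large one are given first. In KO LPS and unstimulated KO cells array 2 lay above the mean of arrays 1 and 3 by 1.08 and 0.98 for Mki67, which encodes the proliferation antigen Ki-67, and by 1.14 and 1.16 for Birc5, which encodes survivin of the chromosomal passenger complex. The step was 1.83 and 0.92 for Nusap1, a spindle microtubule protein gene, and 2.00 and 1.57 for Rrm2, the S-phase subunit of ribonucleotide reductase. In the WT groups, with LPS and without, the matching steps were -0.24 and -0.31 for Mki67, 0.11 and -0.38 for Birc5 and -0.07 and -0.63 for Rrm2. Other standard proliferation genes had no such step in both KO groups: with LPS and without, it was -0.66 and 0.09 for Pcna, -0.53 and 0.30 for Mcm2, -0.01 and 0.95 for Aurka, a mitotic kinase gene, and 0.61 and -0.10 for Plk1, another.

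Marker lists of other cells also varied between same-group arrays. Erythroid precursor markers (9 of 12 measured, 5 at or above the median gene) averaged 0.30, 0.54 and 0.00 in KO LPS arrays 1 to 3, 0.37, -0.32 and -0.94 in WT LPS arrays, 0.25, 0.79 and -0.08 in unstimulated KO arrays and 0.26, -0.31 and -0.87 in unstimulated WT arrays. In all 4 groups the arrays ranked in the same order for erythroid markers as for the mitotic score. Array 2 was the highest KO array for the erythroid list in both stimulations. It was also the highest KO array for neutrophil markers (12 of 12 measured, 10 at or above the median gene), at 2.06 with LPS and 2.45 without. KO array 1 was almost as high for the neutrophil list, at 1.92 with LPS and 2.06 without, while its mitotic score was -0.09 and -0.05. Genes within that list differed. Mpo had 4.44, 5.29 and 3.50 in KO LPS arrays 1 to 3 and 4.58, 5.70 and 3.28 in unstimulated KO arrays. Prtn3, Elane, Ms4a3, Camp and Chil3 also peaked on array 2 of both KO groups. Mmp8 was highest on array 1 in both, and the rest of the list was mixed. B and plasma cell markers (6 of 8 measured) averaged -0.93 on KO LPS array 2 and -0.62 on unstimulated KO array 2, against -0.12 to 0.38 on the other arrays.

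Array quality did not separate unstimulated KO array 2 from the rest. Its Gapdh gap between the 3' end and the middle was 1.57, within the 1.53 to 1.86 of the arrays other than KO LPS array 2. Conventional DC markers averaged -0.57 on KO LPS array 2 and 0.01 on unstimulated KO array 2, against -0.06 to 0.18 on the others. Among germinal centre B cell markers, of which 5 of 6 were measured and 1 lay at or above the median gene, KO LPS array 2 averaged 0.20 and KO LPS array 1 averaged 0.17. The gene at or above the median was Fas, with 4.85 on KO LPS array 1, 4.37 on KO LPS array 2 and 3.44 to 3.79 on the others. The remaining markers were dim, so these averages do not show germinal centre B cells. The labels do not say whether same-numbered KO arrays came from 1 mouse, and the part of the marker lists in the mitotic genes was not tested.

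**Figure D3:**
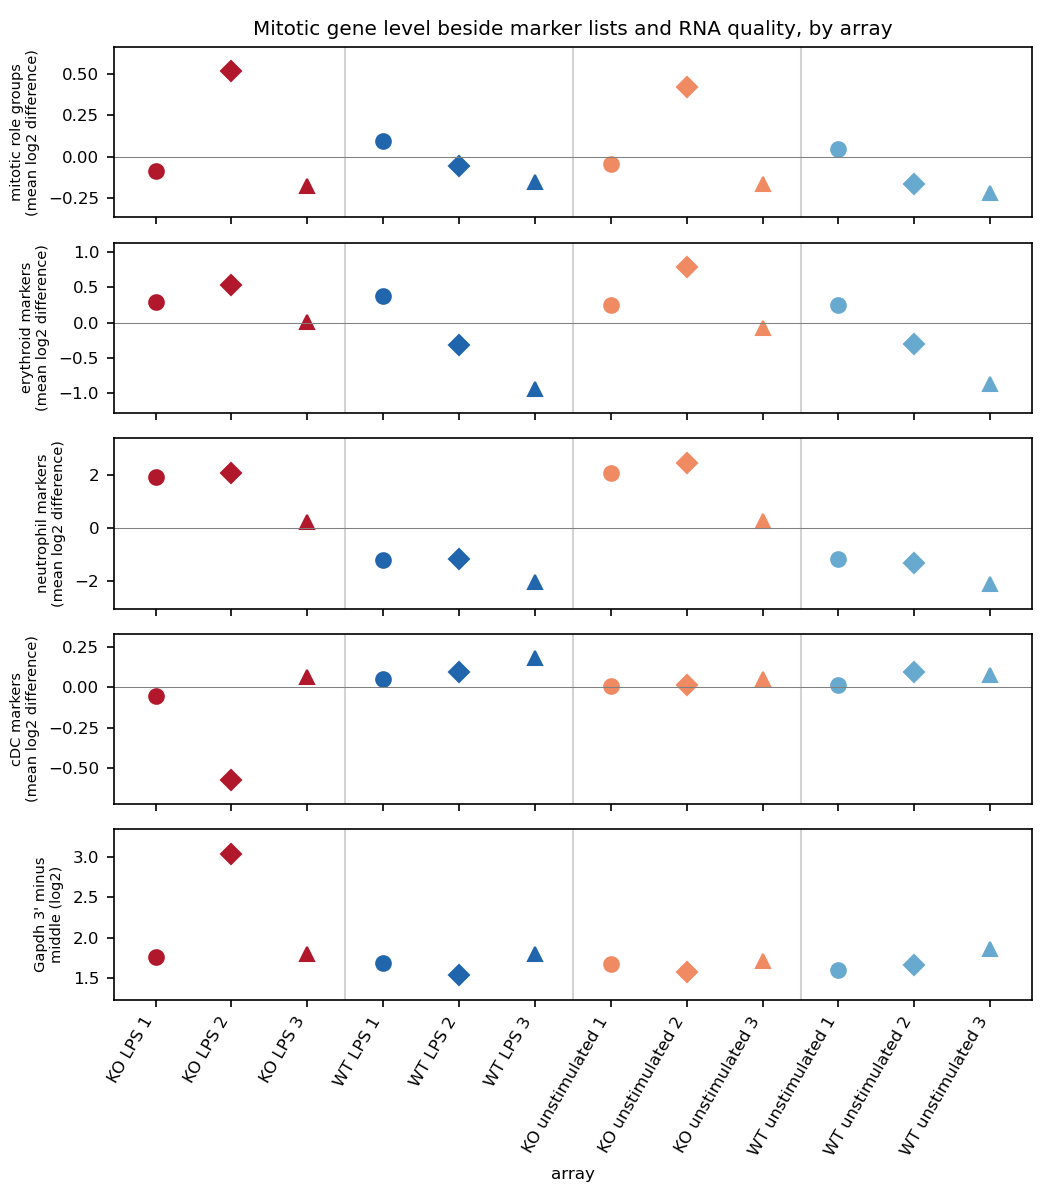
Mean log2 difference from the 12-array mean of the 21 mitotic genes, of erythroid precursor markers, of neutrophil markers and of conventional DC (cDC) markers, and the Gapdh gap between the 3' end and the middle of the transcript (log2 units), for each of the 12 arrays. The mitotic genes peak on array 2 of both KO groups, at 0.51 and 0.42, whereas the Gapdh gap peaks on KO LPS array 2 alone, at 3.04.

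Promoter letters were counted by role, as a description with no test. RefSeq promoter windows (GRCm38.p6, 250 bases before to 50 after the start) were found for 34 of the 45 listed genes, and both strands were searched. CCAAT, the letters bound by NF-Y, was present in 25 of 34 genes (73.5%), against 41.1% of 27025 genes with a window. TTTGAA, the core of the cell cycle homology region read by MuvB complexes, was present in 13 of 34 (38.2%), against 20.2%. E2F-type letters (TTTGGCGC, TTTCCCGC, TTTGCCGC or TTTCGCGC) were present in 8 of 34 (23.5%), against 2.6%. Of 10 licensing, fork and checkpoint genes 6 held E2F letters and 2 held TTTGAA, whereas of 16 mitotic genes 1 held E2F letters and 11 held TTTGAA. E2F letters were in 1 of 5 genes of D-type and E-type cyclins and their kinases and 0 of 3 deoxynucleotide genes, and CCAAT was common in licensing (70.0%) and mitotic genes (87.5%) alike. A match says only that the letters occur in the window.

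The windows below belong to genes of mitosis that were high on array 2 of both KO groups (Ccnb2, Cdk1) and to replication genes that were lower in KO without passing the test (Mcm7, Pcna), and were picked after these values were known. They give the 250 bases before the start, 5' to 3' on the gene's strand, with CCAAT (or ATTGG, its reverse), TTTGAA and E2F letters or their reverse in capitals, at chr9:70421555-70421804 for Ccnb2, chr10:69352913-69353162 for Cdk1, chr5:138171884-138172133 and chr5:138171267-138171516 for the 2 starts of Mcm7 and chr2:132253181-132253430 for Pcna, all on the minus strand.
Ccnb2: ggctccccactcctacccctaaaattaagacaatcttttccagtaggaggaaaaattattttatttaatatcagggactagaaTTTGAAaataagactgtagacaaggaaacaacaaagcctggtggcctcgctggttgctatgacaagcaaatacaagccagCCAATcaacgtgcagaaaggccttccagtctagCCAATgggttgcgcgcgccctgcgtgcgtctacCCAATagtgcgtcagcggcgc
Cdk1: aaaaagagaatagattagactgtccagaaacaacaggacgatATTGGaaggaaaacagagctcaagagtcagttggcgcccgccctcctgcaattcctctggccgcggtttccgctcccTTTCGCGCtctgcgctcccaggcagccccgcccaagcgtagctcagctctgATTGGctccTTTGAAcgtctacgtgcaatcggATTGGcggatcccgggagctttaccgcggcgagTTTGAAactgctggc
Mcm7, start 1: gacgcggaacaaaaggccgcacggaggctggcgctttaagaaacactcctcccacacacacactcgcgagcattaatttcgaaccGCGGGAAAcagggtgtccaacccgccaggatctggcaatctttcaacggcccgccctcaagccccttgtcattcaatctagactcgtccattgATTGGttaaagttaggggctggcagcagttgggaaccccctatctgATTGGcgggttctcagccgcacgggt
Mcm7, start 2: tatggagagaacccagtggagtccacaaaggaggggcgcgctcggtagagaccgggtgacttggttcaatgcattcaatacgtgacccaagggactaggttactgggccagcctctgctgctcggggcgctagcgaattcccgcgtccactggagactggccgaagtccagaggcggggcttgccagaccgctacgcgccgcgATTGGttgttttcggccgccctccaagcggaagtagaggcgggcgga
Pcna: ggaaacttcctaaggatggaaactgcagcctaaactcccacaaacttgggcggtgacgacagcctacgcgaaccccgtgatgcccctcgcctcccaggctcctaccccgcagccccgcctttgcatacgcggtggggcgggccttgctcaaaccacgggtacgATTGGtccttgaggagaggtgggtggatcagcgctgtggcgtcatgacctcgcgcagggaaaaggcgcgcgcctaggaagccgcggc

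Ccnb2, a mitotic cyclin gene with 3 CCAAT boxes and 1 TTTGAA in the printed bases, and Cdk1, its kinase, with 3 CCAAT boxes, 2 TTTGAA and 1 E2F match, were among the genes highest on array 2 of both KO groups. Mcm7, with CCAAT before both starts and an E2F match before the first, and Pcna, with 1 CCAAT box, were not. Other genes went the other way. Birc5 and Nusap1 were highest on array 2 of both KO groups with no match to any of these letters in their windows. Aurka, Plk1 and Cdc20 held CCAAT and TTTGAA and were not highest there in both. A link between the letters and array 2 was not tested.

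The cyclins and kinases that start the cycle held the largest LPS difference of the list. Ccnd2, which encodes cyclin D2, had log2 signals of 5.33, 5.15 and 5.88 in KO LPS arrays, 5.00, 5.20 and 4.97 in WT LPS arrays, 3.79, 4.61 and 4.72 in unstimulated KO arrays and 4.41, 4.65 and 4.31 in unstimulated WT arrays. In both genotypes every LPS array lay above every unstimulated array, which held for 2 of the 44 genes in WT and 3 in KO (6.81% and 5.75% of all genes), and the genotypes overlapped in either stimulation. Mcm5 was the other such gene in WT, and Ccne1 and Chek1 were the others in KO. The LPS difference was 1.08 ± 0.23 log2 units in KO (95% interval 0.57 to 1.59, limma adjusted p = 0.0912) and 0.60 ± 0.23 in WT (adjusted p = 0.868).

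The Ccnd2 difference in KO passed the test under several alternatives. With same-numbered arrays of a genotype as a random block limma gave 1.08 (adjusted p = 0.0339) and with fixed pairs 1.08 (adjusted p = 0.0124). Without KO LPS array 2 it was 1.23 (limma adjusted p = 0.0441), in a fit that called 0.573% of all genes. All 6 Ccnd2 probe sets were higher after LPS in both genotypes, by 0.35 to 0.92 in WT and 0.24 to 1.08 in KO. Between genotypes this LPS difference itself differed by 0.48 ± 0.33 (KO over WT, limma adjusted p = 0.969), and its sign depended on the probe set.

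Ccnd1 and Ccnd3, the other D-type cyclin genes, did not follow Ccnd2. Ccnd1 had 5.77, 4.60 and 6.59 in KO LPS arrays, 6.10, 6.21 and 6.58 in WT LPS arrays, 5.85, 5.58 and 6.31 in unstimulated KO arrays and 5.89, 5.90 and 6.32 in unstimulated WT arrays. The low value was that of KO LPS array 2, and all groups overlapped. KO minus WT after LPS was -0.64 ± 0.38 (limma adjusted p = 0.477), and -0.12 without that array.

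Ccnd3 had 4.14, 3.36 and 4.38 in KO LPS arrays, 4.16, 4.30 and 3.57 in WT LPS arrays, 4.65, 5.09 and 4.21 in unstimulated KO arrays and 4.20, 4.21 and 4.18 in unstimulated WT arrays. Unstimulated KO arrays lay above unstimulated WT arrays, although the lowest KO and the highest WT value both round to 4.21, and KO LPS array 2 was the lowest of the 12. That comparison gave 0.45 (limma adjusted p = 0.703), and a dimmer second probe set gave -0.08. The LPS difference in KO was -0.69 ± 0.27 (limma adjusted p = 0.436).

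The other genes of this role moved less or on single arrays. Ccne2, which encodes cyclin E2, had 4.50 on KO LPS array 2 and 1.95 to 2.58 on the other 11. Over the 8 genes the median KO minus WT difference averaged over both stimulations was 0.031, with 4 genes above 0 and 4 below, and 0 of 8 were called in any comparison. Cdk2, Cdk4 and Cdk6, the kinase partners, had averaged differences of -0.04, -0.18 and -0.08.

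**Figure D4:**
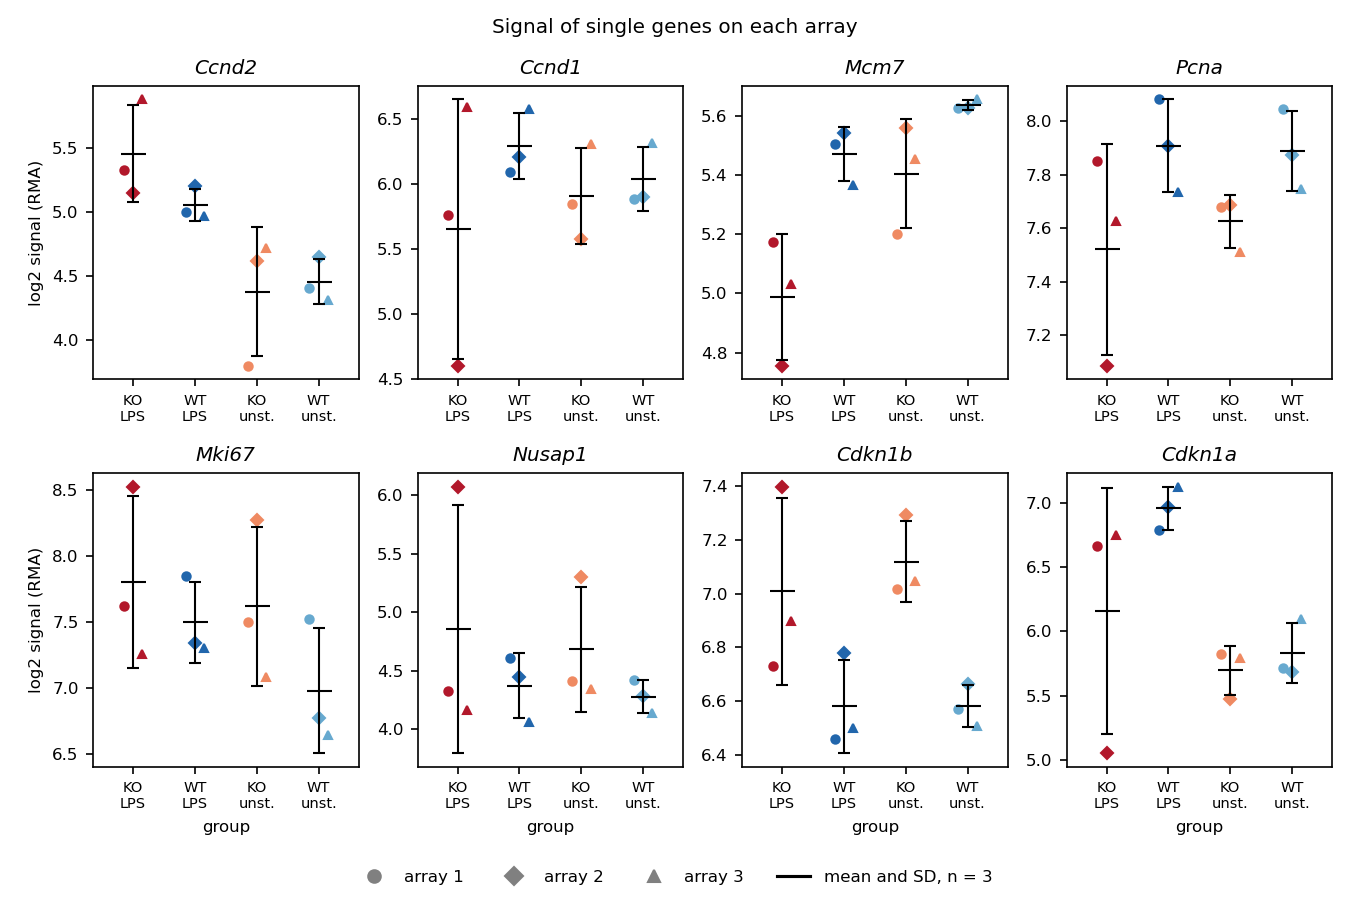
Log2 signal of 8 genes on each array (symbols mark array numbers), with the mean and SD of 3 arrays, in KO LPS, WT LPS, unstimulated (unst.) KO and unstimulated WT DCs. Ccnd2 is higher on every LPS array, Mcm7 is lower on every KO LPS array than on any WT LPS array, and Mki67 and Nusap1 are highest on array 2 of the KO groups.

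Among the genes of origin licensing and the replication fork none passed the test. Averaged over both stimulations 8 of 12 were below 0 in KO against WT (9348 of 17097 over all genes), with a median of -0.12 (-0.17 without KO LPS array 2 and -0.18 without array 2 of both KO groups), against -0.016 over all genes. At an unadjusted p under 0.05 Mcm3, Mcm7 and Pcna were lower (3 of 12, against 7.74% of all genes) and 0 of 12 were higher (against 8.52%). The 41 measured replication genes outside the list went neither way, with 21 above 0, 20 below and a median of 0.010. In unstimulated cells all 3 KO arrays lay below all 3 WT arrays for Mcm3, Mcm4, Mcm7 and Pcna (4 of 44 in the list against 7.87% of all genes), and after LPS for Mcm5 and Mcm7, with Bub1b and Cdc20 from the mitotic groups (4 of 44 against 10.2%). No gene of the list had all KO LPS arrays above all WT LPS arrays (0 of 44 against 6.92%). Over the 44 genes the 2 shares of lower genes are close to those of all genes, and the share of higher genes is smaller. Among the 12 licensing, fork and checkpoint genes alone, the lower genes were 4 of 12 unstimulated (7.87% of all genes). After LPS they were 2 of 12 (10.2% of all genes). These counts have no test.

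Mcm7, a subunit of the replicative helicase, came closest to the threshold between genotypes. It had 5.17, 4.75 and 5.03 in KO LPS arrays, 5.50, 5.54 and 5.37 in WT LPS arrays, 5.20, 5.56 and 5.46 in unstimulated KO arrays and 5.63, 5.63 and 5.66 in unstimulated WT arrays. KO arrays were below WT arrays in both stimulations with no overlap. Mcm7 was also lower on every LPS array than on every unstimulated array of its genotype, as were Cdk4 and Plk1 in WT (3 of 44 against 5.09% of all genes) and Kif20a in KO (2 of 44 against 7.71%). The averaged difference was -0.36 ± 0.09 (95% interval -0.55 to -0.16, limma adjusted p = 0.0562), and both of its probe sets gave -0.36. It was singled out after its values were seen, and it passed under 4 of the alternatives, such as without KO LPS array 1 (-0.41, limma adjusted p = 0.0391).

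Pcna, the sliding clamp of the replication fork, had 7.85, 7.08 and 7.63 in KO LPS arrays, 8.08, 7.91 and 7.73 in WT LPS arrays, 7.68, 7.69 and 7.51 in unstimulated KO arrays and 8.05, 7.88 and 7.75 in unstimulated WT arrays. The unstimulated KO arrays were below the WT arrays, and with LPS the groups overlapped. The averaged difference was -0.33 ± 0.12 (limma adjusted p = 0.208), and -0.22 without KO LPS array 2.

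Mcm3 and Mcm4, further helicase subunits, were close to Mcm7 in direction. Mcm3 had 3.90, 3.41 and 4.26 in KO LPS arrays, 4.01, 4.14 and 4.26 in WT LPS arrays, 3.91, 3.80 and 3.97 in unstimulated KO arrays and 4.26, 4.21 and 4.14 in unstimulated WT arrays, an averaged difference of -0.29 ± 0.12 (limma adjusted p = 0.250). Mcm4 had 3.49, 4.65 and 3.68 in KO LPS arrays, 3.87, 3.99 and 3.91 in WT LPS arrays, 3.70, 3.89 and 3.49 in unstimulated KO arrays and 3.93, 4.22 and 3.97 in unstimulated WT arrays. Its unstimulated difference was -0.35 ± 0.24 (limma adjusted p = 0.752), and KO LPS array 2 was the only KO array above the WT values. Without array 2 of both KO groups Mcm4 passed in the averaged comparison (-0.39, limma adjusted p = 0.0429), in a fit that called 2.42% of all genes.

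Other helicase and checkpoint genes varied in direction. Mcm5 had the lowest unadjusted p for the difference of the LPS effects (-0.40 ± 0.18, limma adjusted p = 0.969), with 2.91, 2.54 and 2.91 in KO LPS arrays, 3.21, 2.95 and 3.22 in WT LPS arrays, 2.69, 2.90 and 2.70 in unstimulated KO arrays and 2.75, 2.71 and 2.66 in unstimulated WT arrays. All WT LPS arrays were above the other 9, but the gene was dim, and its other probe set gave the opposite sign for LPS in WT (-0.28 against 0.42). Cdt1, the licensing factor, and its inhibitor Gmnn had averaged differences of 0.17 and 0.08, and the checkpoint kinase gene Chek1 had 3.76 on KO LPS array 2 and 2.03 to 2.53 elsewhere.

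**Figure D5:**
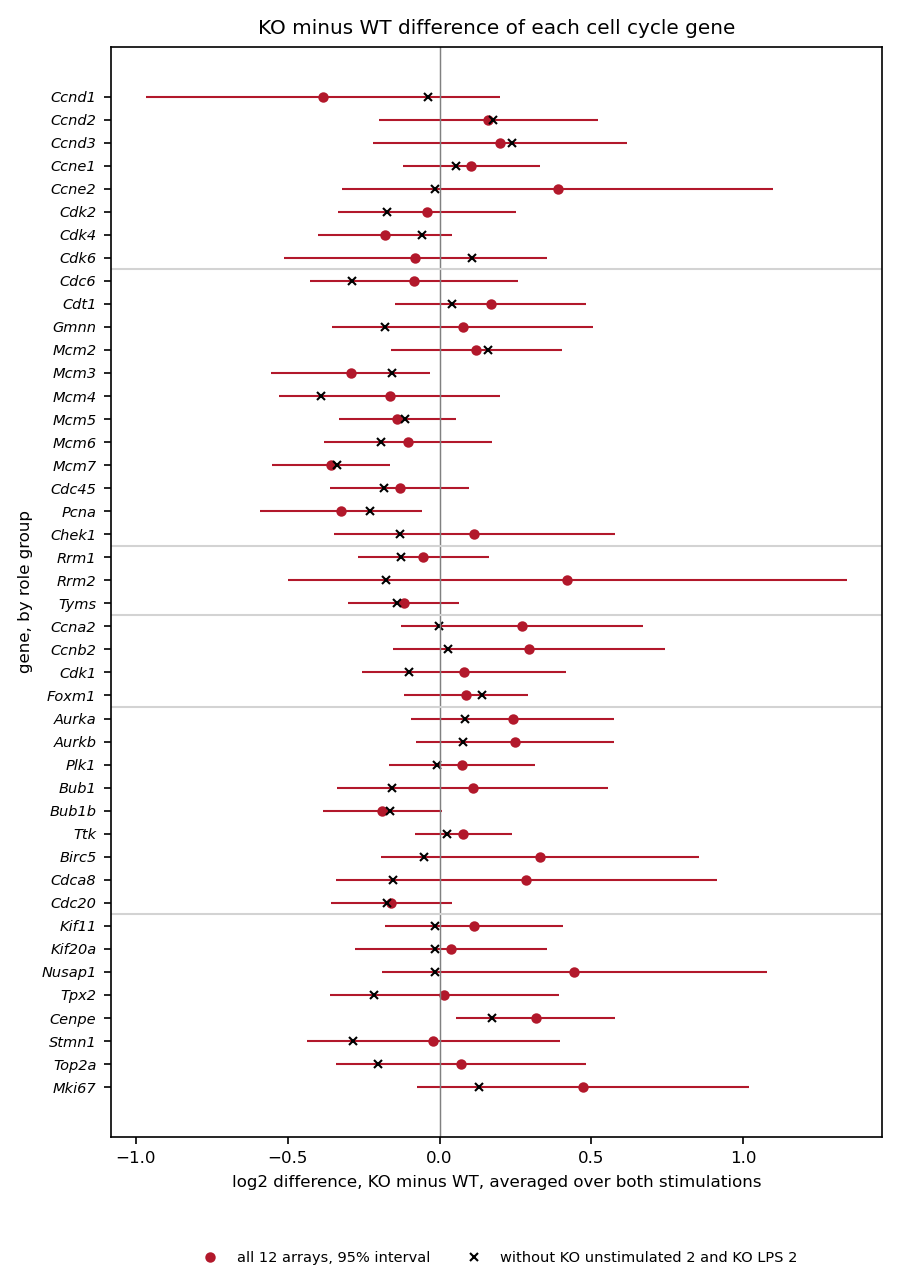
KO minus WT log2 difference of each cell cycle gene averaged over both stimulations, with its 95% interval from all 12 arrays (circles and lines) and the value without array 2 of both KO groups (crosses), genes ordered by role from G1 cyclins at the top to proliferation markers at the bottom. The intervals of Mcm3, Mcm7, Pcna and Cenpe do not reach 0, and for most mitotic genes the cross lies left of the circle.

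The genes that supply deoxynucleotides gave no common direction. Rrm1, the large subunit of ribonucleotide reductase, had 5.40, 5.29 and 5.34 in KO LPS arrays, 5.52, 5.62 and 5.35 in WT LPS arrays, 5.40, 5.80 and 5.18 in unstimulated KO arrays and 5.45, 5.37 and 5.41 in unstimulated WT arrays. The groups overlapped, and its averaged difference was -0.05 ± 0.10 (limma adjusted p = 0.835). Rrm2 ranged from 3.85 to 6.29 over the arrays and had an interval of -0.50 to 1.34 for the averaged difference, the widest of the list. Tyms, the thymidylate synthase gene, had an averaged difference of -0.12.

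The mitotic cyclin group leaned higher in KO through array 2. Ccna2, which encodes cyclin A2, had 4.39, 5.09 and 4.32 in KO LPS arrays, 4.68, 4.32 and 4.36 in WT LPS arrays, 4.39, 5.20 and 4.17 in unstimulated KO arrays and 4.36, 4.26 and 3.94 in unstimulated WT arrays. With LPS, KO array 2 alone lay above the WT range. Without LPS, KO arrays 1 and 2 did, array 1 by a small margin. The averaged difference was 0.27 ± 0.18 (limma adjusted p = 0.501), and -0.0028 without both of those arrays. All 4 measured genes of the group were above 0 in the averaged comparison, with a median of 0.18 (0.012 without both arrays), and 0 were called. Foxm1, the transcription factor gene of the mitotic programme, had an averaged difference of 0.09.

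Of the 9 mitotic kinase, passenger complex and checkpoint genes, 3 (Bub1, Birc5 and Cdca8) were highest on array 2 of both KO groups. The rest were not, and Bub1b was lowest of the 12 arrays on KO LPS array 2. Birc5 had 4.26, 5.38 and 4.21 in KO LPS arrays, 4.65, 4.50 and 4.14 in WT LPS arrays, 4.43, 5.52 and 4.29 in unstimulated KO arrays and 4.47, 4.02 and 4.32 in unstimulated WT arrays. Array 2 of both KO groups lay above all other 10 arrays, and the groups overlapped. The averaged difference was 0.33 ± 0.24 (limma adjusted p = 0.537), and -0.05 without both KO arrays numbered 2. In the group of 9 genes, 7 were above 0 and 2 below, with a median of 0.11 (-0.05 without both arrays). The exceptions were Bub1b, a spindle checkpoint kinase gene, and Cdc20, the activator of the anaphase-promoting complex, at -0.19 and -0.16.

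Among the 8 spindle, chromosome and proliferation-marker genes, 5 were above 0 and 3 below for unstimulated KO against WT. The median was 0.15, and -0.028 without both KO arrays numbered 2. Averaged over both stimulations 7 were above 0 and 1 below, with a median of 0.092 (-0.015 without both arrays). For unstimulated KO against WT, Mki67 had the largest difference of the whole list. Mki67 had 7.63, 8.53 and 7.26 in KO LPS arrays, 7.85, 7.34 and 7.31 in WT LPS arrays, 7.50, 8.27 and 7.09 in unstimulated KO arrays and 7.53, 6.77 and 6.65 in unstimulated WT arrays. KO array 2 was the highest in each stimulation, and KO and WT overlapped in both. The unstimulated difference was 0.64 ± 0.36 (95% interval -0.13 to 1.41, limma adjusted p = 0.660), and the averaged one was 0.47 ± 0.25 (adjusted p = 0.383), or 0.13 without both KO arrays numbered 2.

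Nusap1 had 4.32, 6.07 and 4.16 in KO LPS arrays, 4.61, 4.44 and 4.06 in WT LPS arrays, 4.41, 5.30 and 4.34 in unstimulated KO arrays and 4.41, 4.28 and 4.14 in unstimulated WT arrays. The high values were both on array 2 and the groups overlapped. KO minus WT after LPS was 0.48 ± 0.41 (limma adjusted p = 0.638), and without KO LPS array 2 it was -0.13. Its dimmer second probe set did not show the high array 2, with a difference of 0.13.

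Cenpe, a kinetochore motor gene, was the exception in having all 3 unstimulated KO arrays above all 3 WT arrays. It had 3.27, 3.74 and 3.19 in KO LPS arrays, 3.12, 3.43 and 3.14 in WT LPS arrays, 3.29, 3.77 and 3.55 in unstimulated KO arrays and 3.18, 2.86 and 3.17 in unstimulated WT arrays. The unstimulated difference was 0.46 ± 0.17 (limma adjusted p = 0.422) and the averaged one 0.32 ± 0.12 (adjusted p = 0.209). Ccnd3 and Ttk, a spindle checkpoint kinase gene, were the others of 44 with such separation (8.99% of all genes). Kif11, the motor that separates spindle poles, had 4.38, 4.52 and 4.24 in KO LPS arrays, 4.45, 4.24 and 3.87 in WT LPS arrays, 4.41, 4.80 and 4.07 in unstimulated KO arrays and 4.45, 4.57 and 4.18 in unstimulated WT arrays, and its LPS difference in WT was -0.21 ± 0.19 (limma adjusted p = 1.0).

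Of 104 further genes of the pathway that are not in the list, 98 were measured, and 1 passed in 1 comparison. Cdkn1b, which encodes the cyclin-dependent kinase inhibitor p27, rose in KO averaged over both stimulations (1 of 98, where 1.74% of all genes were called higher). It had 6.73, 7.40 and 6.90 in KO LPS arrays, 6.46, 6.78 and 6.50 in WT LPS arrays, 7.02, 7.29 and 7.05 in unstimulated KO arrays and 6.57, 6.66 and 6.51 in unstimulated WT arrays. The unstimulated groups did not overlap and the LPS groups did. The difference was 0.48 ± 0.11 (95% interval 0.24 to 0.73, limma adjusted p = 0.0462), and its second probe set gave -0.05. The call was also lost with the random block (adjusted p = 0.0650 by limma) and when any 1 unstimulated or WT LPS array was left out.

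Cdkn1a, which encodes the inhibitor p21, had 6.67, 5.05 and 6.75 in KO LPS arrays, 6.79, 6.97 and 7.12 in WT LPS arrays, 5.82, 5.47 and 5.79 in unstimulated KO arrays and 5.71, 5.69 and 6.10 in unstimulated WT arrays. All LPS arrays except KO LPS array 2 lay above all unstimulated arrays. The LPS difference was 1.13 ± 0.34 in WT (limma adjusted p = 0.625) and 0.46 ± 0.34 in KO (adjusted p = 0.726). Without KO LPS array 2 it passed in both genotypes, at 1.13 in WT (limma adjusted p = 0.00257) and 1.01 in KO (limma adjusted p = 0.00921), where 0.392% and 0.573% of all genes were called. Its second probe set was higher after LPS by 0.87 in WT and 1.25 in KO.

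The rest of the pathway gave no further call. For the averaged KO minus WT difference, 1 of the 41 replication genes was higher and 3 were lower at an unadjusted p under 0.05. Among 43 mitosis genes the median was 0.094, with 4 higher and 2 lower. Over all genes 8.52% were higher and 7.74% lower, so these counts are close to the background. Pold2, a subunit of DNA polymerase delta, and Dut, which removes dUTP, were lower by -0.36 ± 0.10 and -0.39 ± 0.13 (limma adjusted p = 0.077 and 0.132). Cks2, a small partner of the mitotic kinase, was at 0.86 ± 0.25 (limma adjusted p = 0.090). These did not pass, and they were picked out after their values were seen.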

How the data were processed

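The values are log2 signals that the authors made by RMA (background correction, quantile normalisation and probe set summary), per the submitters' processing notes, which give no version, from RNA amplified with the WT-Ovation Pico system, per the labels' protocols. They were used as deposited: 45141 probe sets on 12 arrays. No other columns of sample values were present (0 unused). Of the probe sets, 28898 carried 1 gene symbol, 551 several and 15588 none. The brightest single-symbol probe set was kept for each of 17097 genes. Of the measured cell cycle genes, 27 had several probe sets, whose signs often differed. For KO against WT they differed in 12 of 27 genes unstimulated, 15 of 27 after LPS and 12 of 27 averaged. For LPS they differed in 12 of 27 in WT and 11 of 27 in KO. No filter on low values was applied.

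All genes were fitted with limma 3.58.1 (R 4.3.3, statmod 1.5.0) as 4 group means, and p-values were adjusted by Benjamini-Hochberg over all genes within each of 6 comparisons, with a threshold of 0.05. Errors after ± are standard errors unless marked SD. Tables and figures used Python 3.11.15, pandas 2.3.3, numpy 2.4.6 and matplotlib 3.10.9. Scripts were tested on simulated data. Arrays give no counts, and their number limits the precision.

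The members and the gene lists were chosen with earlier results of these data known. Values on every array are given for members past the threshold, for the largest rise and fall of each comparison among genes at or above the median, for the brightest member of each role, for Mki67 and Pcna, and for Cdkn1a and Cdkn1b. Mcm3, Mcm4, Mcm5, Mcm7, Cenpe and others beyond that rule were chosen after their values were seen. Each p-value measures only the spread between arrays of a group.

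Same-numbered arrays of a genotype deviated together from their group means, with correlations over genes of 0.305, 0.284 and 0.440 in KO and 0.385, 0.230 and 0.422 in WT, against -0.009 to 0.224 for same-numbered arrays of different genotypes. The numbers come from the sample titles, and no label says that they mark a mouse. A pairing block within genotype was therefore tried, as a random effect (consensus correlation 0.174) and as fixed pairs.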

Additional observations from a re-analysis of the deposited data

How the results depend on the processing

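With 3 arrays per group, the spread between arrays and the dim signal of 11 genes limit what can be called. The number of cell cycle genes called stayed at 0 in 134 recalculations and was 1 in 11. For LPS in KO the count was 1 (Ccnd2) without KO LPS array 2, with the pairing block as a random effect (1) or as fixed pairs (1), with array weights (1), and with the random block and that array left out together (1). Leaving out 1 array at a time gave 0 to 1. For KO against WT averaged over both stimulations it was 1 for Mcm7 without KO LPS array 1, with genes at or above the median only (1), with quantile normalisation (1) and with array weights (1), 1 for Mcm3 without KO LPS array 3, and 1 for Mcm4 without array 2 of both KO groups, and leaving out 1 array at a time gave 0 to 1. The block moved no other count of cell cycle genes.

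Some single values turned round. For KO against WT after LPS, Nusap1 ranged from -0.13 to 0.83 when 1 array was left out, and was -0.053 with the random block and KO LPS array 2 left out and -0.13 without array 2 of both KO groups. For the difference of the LPS effects, Ccnd1 ranged from -0.99 to 0.010 over left-out arrays, and Ccnd2 was -0.0072 with the mean over probe sets. Rrm1 averaged over both stimulations ranged from -0.14 to 0.018 over left-out arrays. Without array 2 of both KO groups Ccna2 was -0.0028 and Birc5 was -0.0526. With the probe set of largest variance, Kif11 for LPS in WT was 0.077 and Cdkn1b averaged was -0.0502. Of the other gene values, 528 kept direction and side of the threshold, 19 newly passed and 15 no longer passed. The cause was not tested. The module score moved by less than 1 SD in all 114 recalculations. Fixed pairs give no KO against WT value, and a fit of only the groups compared has no counterpart for the averaged comparison or the difference of LPS effects. The alternatives without array 2 of both KO groups and with the block and a left-out array together were chosen after seeing the data.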
